A study of Mus musculus with 4 samples.

Results

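The genes described here are 42 genes of the Notch pathway, chosen by symbol as its ligands, receptors, the enzymes that glycosylate and cleave the receptors, the nuclear complex, the proteins that traffic or ubiquitinate the receptors and ligands, and the target genes, out of 53379 genes listed in each library. They were measured by RNA-seq in small intestinal ILC3s, group 3 innate lymphoid cells, which are lymphocytes without antigen receptors that make IL-22 and IL-17. Brg1, encoded by Smarca4, is the ATPase of the BAF chromatin remodelling complex. The control cells came from Thy1.2 Rag1-/- Smarca4 f/f donors and are called Brg1-sufficient cells or controls. The Brg1-deficient cells came from Thy1.1 Thy1.2 Rag1-/- Smarca4 f/f donors that also carried a cre transgene, which deletes the floxed Smarca4 exons in ILC3s and in other cells that use its promoter. Both donors lacked Rag1, and so had no mature T or B cells of their own, and the ages of the mice are not given in the sources used here. Equal numbers of bone marrow cells of both donors were mixed and given to sublethally irradiated Rag2-/- Il2rg-/- recipients, and 6 to 7 weeks after transfer the cells of both origins were sorted as Thy1.2high CD45low and as negative or positive for Thy1.1. There were 2 libraries for each origin, described by the study as biological duplicates. The Thy1.1 marker and the cre transgene went with the deletion in every library, so their parts in a difference cannot be told apart from that of Brg1.

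Notch receptors are cleaved when a Delta or Jagged ligand on a neighbouring cell pulls on them, first by an ADAM protease outside the membrane and then by γ-secretase within it. The freed intracellular domain enters the nucleus, joins the DNA-binding protein RBPJ and a Mastermind protein, and turns on genes such as those of the Hes and Hey families. In the gut, Notch signalling is known to favour the NKp46+ ILC3s, a subset that also uses T-bet and makes IFN-γ. The comparison asks which transcripts of this pathway depend on Brg1 within the ILC3s themselves, since cells of both origins had developed in the same kind of host.

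Values are FPKM, fragments scaled to the length of the transcript and to the number of mapped fragments, as deposited, and are therefore comparable between genes per unit of length. The depth behind each value is unknown, since no read counts were used. Smarca4 was at 17.1 and 16.7 FPKM in the controls and at 9.98 and 9.03 FPKM in Brg1-deficient cells, which was 56.2% of the control mean. This value covers the whole gene, with exons that are not floxed, so it does not measure how complete the deletion was. The 4 libraries had nearly the same distribution of values, so a difference in total RNA between the groups cannot be seen in them. Brg1-sufficient library 1 stood apart from the rest. Across genes, which are not independent replicates, its log2(FPKM + 1) values correlated at 0.930 and 0.931 with the Brg1-deficient libraries, where Brg1-sufficient library 2 correlated at 0.951 and 0.952 with them. The controls correlated at 0.948 with each other, so Brg1-sufficient library 2 was slightly closer to the Brg1-deficient libraries than to the other control. The Brg1-deficient libraries correlated at 0.966 with each other.

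Of the 42 Notch pathway genes, 33 had a mean above 1 FPKM in either group and entered the test, in which limma compared log2(FPKM + 1) over 14739 genes with Benjamini-Hochberg adjustment. The ligand gene Dll1, the receptor gene Notch2, the nuclear complex genes Rbpj and Maml2, and the target gene Hey1 were lower in both Brg1-deficient libraries than in both controls, and the target genes Hes1 and Dtx1 were higher. No Notch pathway gene passed an adjusted p of 0.05, a threshold that 0.305% of all genes tested passed. At an unadjusted p under 0.05 in limma, 6 of the 33 genes were lower, where 6.47% of all genes were, and 3 were higher, where 6.12% of all genes were. For its gene ontology analysis the study kept genes with an unadjusted p under 0.05, an adjusted p under 0.4, a mean above 5 FPKM in either group and a log2 change of the group mean larger than 0.5. With these limits, called the list criteria here, applied to the p-values from limma, 5 Notch pathway genes (15.2%) were lower, beside 4.37% of all genes, and 2 (6.06%) were higher, beside 3.85% of all genes. Both libraries of one group lay outside the range of the other, on the lower side, in 12 genes (36.4%) beside 20.2% of all genes, and on the higher side in 8 genes (24.2%) beside 24.4% of all genes. The median log2 fold change of the 33 genes was -0.04, and that of all genes tested was 0.03.

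The list criteria kept 0 of these genes in either direction when Brg1-sufficient library 1, Brg1-deficient library 1 or Brg1-deficient library 2 was left out, with the lone remaining library of a group assumed to vary like the other group. Fold changes are on the log2(FPKM + 1) scale and understate the change of low genes. In these bulk samples, fewer cells that use a gene and less RNA of it per cell cannot be told apart.

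**Figure D1:**
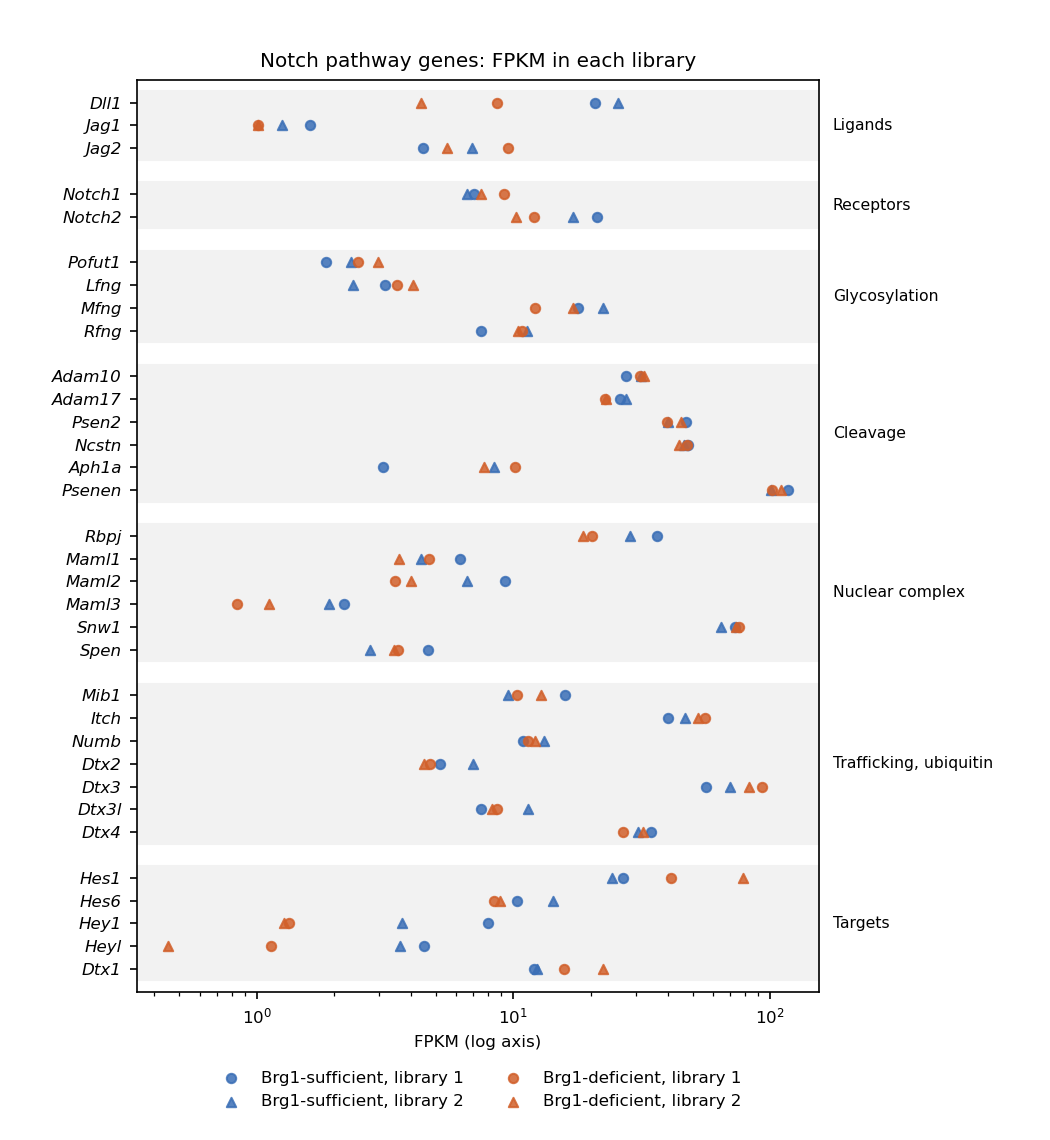
FPKM of the 33 tested Notch pathway genes in each library, on a log axis, grouped by their step in the pathway; blue marks Brg1-sufficient and orange Brg1-deficient libraries, and circles and triangles mark libraries 1 and 2. Both orange points of Dll1, Notch2, Rbpj, Maml2, Hey1 and Heyl lie to the left of both blue points, those of Hes1, Dtx1 and Dtx3 lie to the right, and most cleavage genes have mixed points.

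Among the 5 ligand genes, Dll1 was the most abundant in the control cells and was lower without Brg1. Dll1 encodes Delta-like 1, a Notch ligand that the sending cell displays. It was at 20.9 and 25.5 FPKM in the controls and at 8.61 and 4.36 FPKM in Brg1-deficient cells. The groups did not overlap, and the lower control was above the higher Brg1-deficient library by more than the spread within either group. The mean was 23.2 ± 3.26 FPKM (SD, n = 2) against 6.49 ± 3.01 FPKM (SD, n = 2), a level 3.58 times lower. The log2 fold change was -1.75, with a standard error (SE) of 0.314 (adjusted p = 0.112 in limma after Benjamini-Hochberg adjustment). It was between -2.17 and -1.33 when any one library was left out. Dll1 lies on the reverse strand of chromosome 17 from 15367354 to 15376872 (GRCm38). An exon is shared with the noncoding gene A930024N18Rik on the opposite strand, which was listed at 0.10 to 0.25 FPKM.

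The Jagged ligand genes were less abundant than Dll1 in the controls, and neither passed a threshold. Jag2 was at 4.45 and 6.90 FPKM in the controls and at 9.51 and 5.54 FPKM in Brg1-deficient cells, which overlapped (log2 fold change 0.34, adjusted p = 0.695 in limma with Benjamini-Hochberg adjustment). Jag1 was at 1.62 and 1.26 FPKM in the controls and at 1.01 FPKM in both Brg1-deficient libraries, lower without overlap (log2 fold change -0.28, adjusted p = 0.753). The remaining ligand genes, Dll3 and Dll4, stayed at or under 0.41 FPKM in every library and were not tested. Of the summed FPKM of the 5 ligand genes, Dll1 held 77.2% and 74.9% in the controls and 44.0% and 39.6% in the Brg1-deficient libraries, where Jag2 held 48.6% and 50.3%. The ligand sum itself was 27.1 and 34.1 FPKM in the controls and 19.6 and 11.0 FPKM in Brg1-deficient cells, so it did not overlap either.

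Notch2 and Notch1 made up nearly all of the receptor transcripts, and of them Notch2 was lower by the list criteria while Notch1 passed no threshold. Notch2 encodes the receptor that was more abundant per unit of length in all 4 libraries. It was at 21.2 and 17.0 FPKM in the controls and at 12.0 and 10.2 FPKM in Brg1-deficient cells, with no overlap. The mean was 19.1 ± 2.97 FPKM (SD, n = 2) against 11.1 ± 1.26 FPKM (SD, n = 2), with a log2 fold change of -0.73 (SE 0.191, adjusted p = 0.226 in limma). Notch1, the receptor best known from early T cell development, was at 7.01 and 6.60 FPKM in the controls and at 9.21 and 7.46 FPKM in Brg1-deficient cells. Both Brg1-deficient values of Notch1 were above both controls, by a log2 fold change of 0.25 (adjusted p = 0.631). Notch3 and Notch4 were listed at 0.18 to 0.82 FPKM and were not tested. Notch2 held 73.2% and 68.5% of the receptor sum in the controls and 54.5% and 55.6% in the Brg1-deficient libraries. Notch2 lies on the forward strand of chromosome 3 from 98013527 to 98150361 and shares exon sequence with the unconfirmed gene model Gm42820 on the same strand, listed at 0.96 to 1.46 FPKM.

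**Figure D2:**
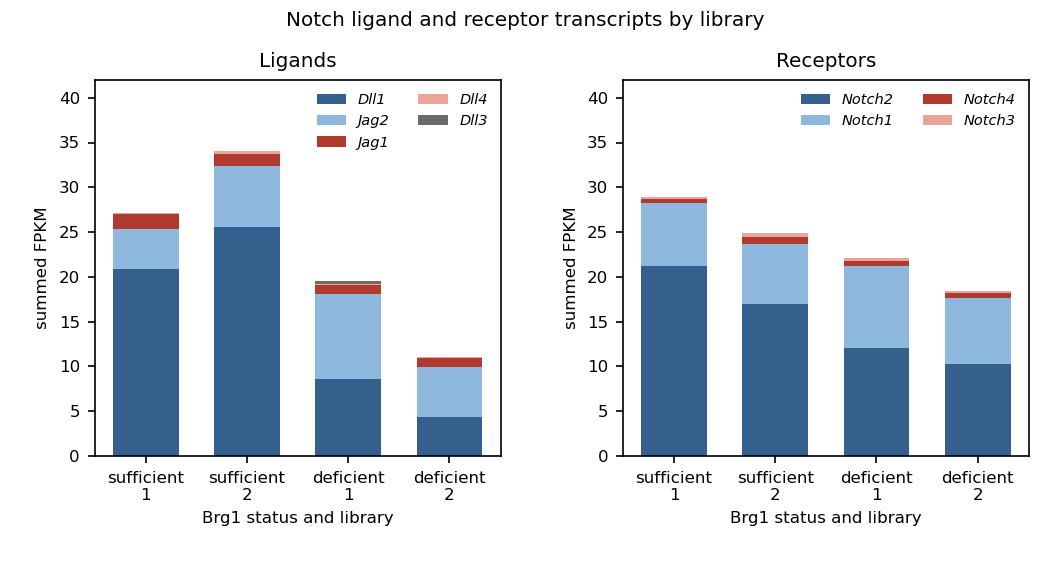
Summed FPKM of the 5 Notch ligand genes (left) and the 4 receptor genes (right) in each library, stacked by gene on an axis that starts at 0. The Dll1 and Notch2 segments are shorter in both Brg1-deficient libraries than in both controls, while the Jag2 and Notch1 segments are not.

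The nuclear complex held a pair of genes that passed the list criteria on the lower side. Rbpj encodes the DNA-binding protein that the cleaved Notch receptors share. It was at 36.2 and 28.4 FPKM in the controls and at 20.4 and 18.7 FPKM in Brg1-deficient cells, and the groups did not overlap. The mean was 32.3 ± 5.49 FPKM (SD, n = 2) against 19.5 ± 1.19 FPKM (SD, n = 2), with a log2 fold change of -0.69 (SE 0.180, adjusted p = 0.223 in limma). Maml2 encodes one of the 3 Mastermind-like coactivators that hold the Notch fragment on RBPJ. It was at 9.32 and 6.61 FPKM in the controls and at 3.47 and 3.98 FPKM in Brg1-deficient cells, again with no overlap. Its log2 fold change was -0.91 (SE 0.238, adjusted p = 0.223). Rbpj lies on the forward strand of chromosome 5 from 53466152 to 53657362, and Maml2 on the forward strand of chromosome 9 from 13297957 to 13709388. With Brg1-sufficient library 1 left out, the log2 fold changes were -0.58 for Notch2, -0.52 for Rbpj and -0.69 for Maml2.

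The other Mastermind-like genes were less abundant. Maml3 was at 2.20 and 1.92 FPKM in the controls and at 0.84 and 1.12 FPKM in Brg1-deficient cells, with no overlap, but its log2 fold change of -0.63 had an adjusted p of 0.478 in limma. Maml1 was at 6.18 and 4.37 FPKM in the controls and at 4.69 and 3.60 FPKM in Brg1-deficient cells, which overlapped. Snw1, which encodes a splicing protein that also binds the RBPJ complex, was the most abundant gene of this step, at 72.8 and 64.6 FPKM in the controls and 75.7 and 73.6 FPKM in Brg1-deficient cells. Its values were separated by less than 1 FPKM at their closest and its log2 fold change was 0.12 (adjusted p = 0.754). Spen, a corepressor that RBPJ recruits in the absence of Notch signal, ranged from 2.77 to 4.65 FPKM and overlapped (log2 fold change -0.04).

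Sequences upstream of 4 of the 5 genes that were lower by the list criteria are shown so that the region before each start can be set beside its change, each as the stretch of the 250 bases before the RefSeq start nearest to the annotated gene start that holds none of the gene's annotated exons. Hey1 had no entry in the table used. All are from RefSeq on GRCm38.p6, 5′ to 3′ in the sense of the gene, and capitals mark the letters TGGGAA or TTCCCA, the core of the RBPJ recognition sequence on either strand.
Dll1, chr17:15376933-15377182, reverse strand: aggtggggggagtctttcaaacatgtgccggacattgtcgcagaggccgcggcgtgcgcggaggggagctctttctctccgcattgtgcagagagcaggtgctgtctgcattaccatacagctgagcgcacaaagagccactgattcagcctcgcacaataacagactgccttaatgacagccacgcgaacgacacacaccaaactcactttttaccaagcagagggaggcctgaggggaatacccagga
Notch2, chr3:98013288-98013526, forward strand: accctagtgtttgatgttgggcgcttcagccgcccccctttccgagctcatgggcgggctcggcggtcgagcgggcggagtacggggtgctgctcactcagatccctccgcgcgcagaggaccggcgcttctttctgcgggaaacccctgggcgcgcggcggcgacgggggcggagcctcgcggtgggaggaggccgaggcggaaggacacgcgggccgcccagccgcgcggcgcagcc
Rbpj, chr5:53590096-53590213, forward strand: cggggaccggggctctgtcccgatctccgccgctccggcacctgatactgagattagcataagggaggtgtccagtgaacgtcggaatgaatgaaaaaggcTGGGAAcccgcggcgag
Maml2, chr9:13297708-13297956, forward strand: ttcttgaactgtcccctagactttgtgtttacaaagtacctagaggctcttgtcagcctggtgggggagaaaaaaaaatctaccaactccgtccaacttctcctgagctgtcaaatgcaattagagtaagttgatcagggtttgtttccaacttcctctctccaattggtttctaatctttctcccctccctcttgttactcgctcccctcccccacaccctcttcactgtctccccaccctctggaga

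The printed Rbpj stretch held the core once, and the printed stretches before Dll1, Notch2 and Maml2 did not hold it. Dll1, Rbpj and Maml2 each had a second RefSeq start, and the window before it held the core in Rbpj and Maml2 and not in Dll1. The start used for Rbpj lies within the gene as GENCODE annotates it, so the stretch is upstream of an inner start. Over the full 250 bases, 21.6% of the 32851 windows in the table held the core on either strand, and so did 12 of the 41 windows (29.3%) of the 33 Notch pathway genes that had one. A match to 6 letters is a description of sequence and does not mark a bound site.

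Of the 9 target genes, 5 were tested, and they split between lower and higher. Hey1 and Heyl encode related repressors with a basic helix-loop-helix domain that Notch turns on in many tissues. Hey1 was at 7.96 and 3.68 FPKM in the controls and at 1.34 and 1.28 FPKM in Brg1-deficient cells. The groups did not overlap, although the controls differed from each other more than the lower control did from the Brg1-deficient libraries. The log2 fold change of Hey1 was -1.49 (SE 0.368, adjusted p = 0.199 in limma), and -1.02 without Brg1-sufficient library 1. Heyl was at 4.48 and 3.63 FPKM in the controls and at 1.14 and 0.45 FPKM in Brg1-deficient cells, with no overlap. Its log2 fold change was -1.52 (SE 0.323, adjusted p = 0.155), and it did not enter the list criteria because its control mean of 4.06 FPKM was under 5. Hey1 lies on the reverse strand of chromosome 3 from 8663359 to 8667256, and Heyl on the forward strand of chromosome 4 from 123233556 to 123249875.

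Hes1 went the other way. It encodes a repressor of the same protein class and is the target most often read as a sign of Notch activity, although other signals also control it. Hes1 was at 26.7 and 24.3 FPKM in the controls and at 41.0 and 78.7 FPKM in Brg1-deficient cells. Both Brg1-deficient values were above both controls, but they differed widely from each other, with a mean of 59.9 ± 26.6 FPKM (SD, n = 2) against 25.5 ± 1.71 FPKM (SD, n = 2). The log2 fold change was 1.13 (SE 0.315, adjusted p = 0.245 in limma) and 0.67 without Brg1-deficient library 2. In that same library Dtx1, which encodes a Deltex ubiquitin ligase that is itself a Notch target in lymphocytes, was also highest. Dtx1 was at 12.1 and 12.4 FPKM in the controls and at 15.8 and 22.4 FPKM in Brg1-deficient cells, with no overlap. Its log2 fold change was 0.59 (SE 0.213, adjusted p = 0.359), and 0.34 without Brg1-deficient library 2. Hes1 lies on the forward strand of chromosome 16 from 30064384 to 30067796, and Dtx1 on the reverse strand of chromosome 5 from 120680202 to 120711927.

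The last tested target, Hes6, was at 10.4 and 14.3 FPKM in the controls and at 8.42 and 8.92 FPKM in Brg1-deficient cells. These did not overlap, and the log2 fold change was -0.45 (adjusted p = 0.472 in limma). Hes5, Hes7, Hey2 and Nrarp, which are strong Notch targets in other tissues, stayed between 0 and 0.57 FPKM in the 4 libraries. Hes1 was thus the most abundant target gene per unit of length in every library. The sum over the 9 target genes was 62.4 and 58.7 FPKM in the controls and 68.9 and 113 FPKM in Brg1-deficient cells.

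**Figure D3:**
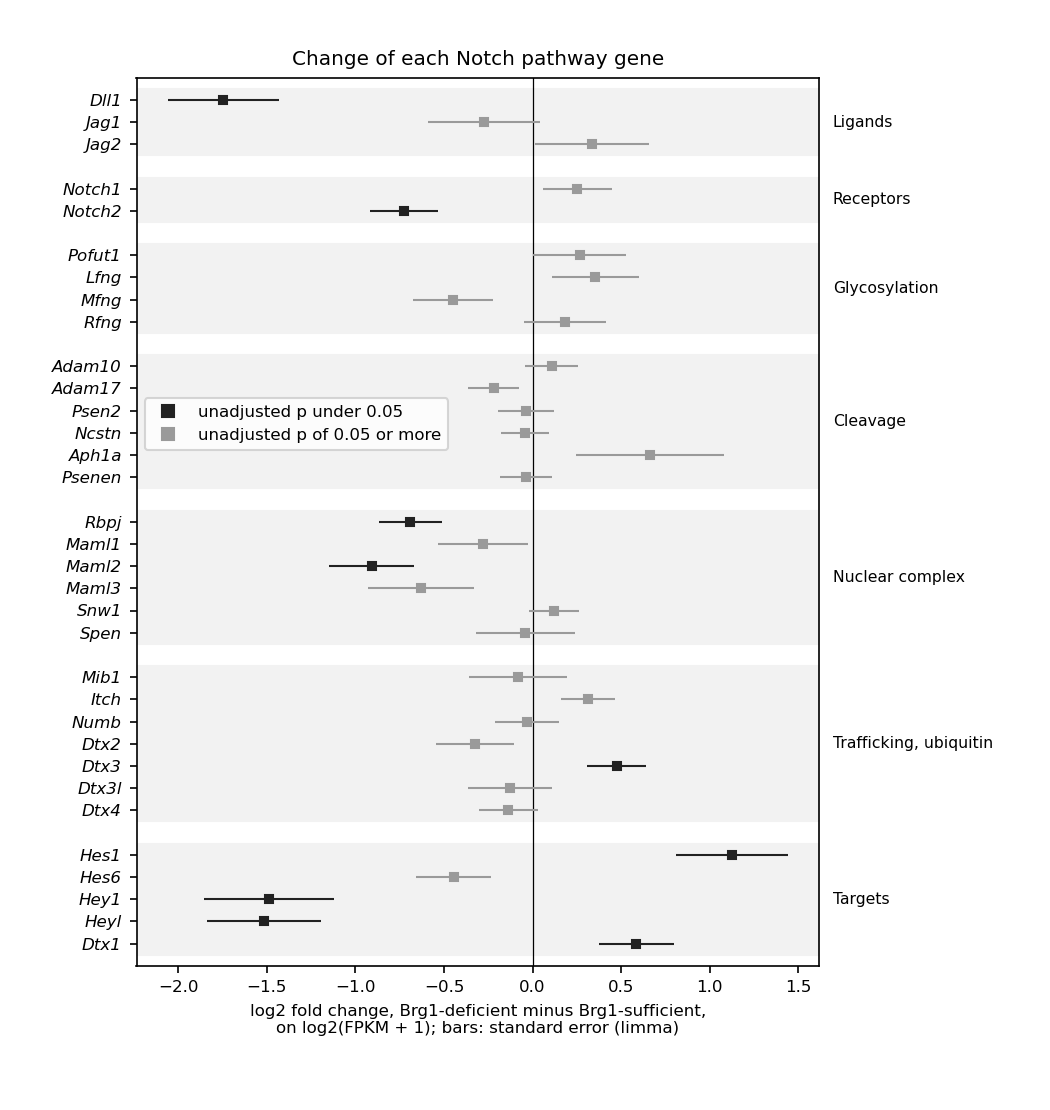
Log2 fold change of each tested Notch pathway gene, Brg1-deficient minus Brg1-sufficient, on log2(FPKM + 1), with the standard error from limma as bars; black squares mark an unadjusted p under 0.05. The black squares are Dll1, Notch2, Rbpj, Maml2, Hey1 and Heyl on the lower side and Dtx3, Hes1 and Dtx1 on the higher side, while no gene of the glycosylation or cleavage steps is black.

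None of the 10 tested genes of the glycosylation and cleavage steps reached an unadjusted p of 0.05 in limma. Pofut1 adds the first fucose to Notch, and the Fringe enzymes Lfng, Mfng and Rfng extend it, which sets how well Delta and Jagged ligands are bound. Mfng was the most abundant of them, at 17.9 and 22.3 FPKM in the controls and 12.1 and 17.0 FPKM in Brg1-deficient cells. Its groups did not overlap, and the log2 fold change was -0.45 (adjusted p = 0.496). Lfng was at 3.17 and 2.37 FPKM in the controls and at 3.54 and 4.06 FPKM in Brg1-deficient cells, the other direction from Mfng (log2 fold change 0.35, adjusted p = 0.612). Pofut1, between 1.87 and 2.98 FPKM, was higher in both Brg1-deficient libraries by a log2 fold change of 0.27, and Rfng overlapped.

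Adam10 and Adam17 encode the proteases of the first cut. Adam10 was at 27.5 and 31.4 FPKM in the controls and at 31.2 and 32.3 FPKM in Brg1-deficient cells, which overlapped. Adam17 was at 26.1 and 27.4 FPKM in the controls and at 22.8 and 22.9 FPKM in Brg1-deficient cells. The Adam17 values did not overlap, with a log2 fold change of -0.22 (adjusted p = 0.603 in limma). Of the γ-secretase genes in the list, Psen2 encodes a catalytic subunit, and Ncstn, Psenen and Aph1a encode partner subunits. Psen2 was at 46.9 and 40.2 FPKM in the controls and at 39.9 and 44.9 FPKM in Brg1-deficient cells. For Ncstn the values were 48.1 and 46.4 FPKM in the controls and 47.4 and 44.4 FPKM in Brg1-deficient cells. For Psenen they were 118 and 101 FPKM in the controls and 102 and 111 FPKM in Brg1-deficient cells. All of these overlapped, with log2 fold changes of -0.04 for each of the 3 genes. Aph1a was lowest in Brg1-sufficient library 1, at 3.12 FPKM, and at 7.70 to 10.1 FPKM in the other 3 libraries (log2 fold change 0.66, adjusted p = 0.590). The near-identical genes Aph1b, at 0.58 to 2.50 FPKM, and Aph1c, at 2.01 to 3.34 FPKM, overlapped between the groups.

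The ubiquitin ligase gene Dtx3, a relative of Dtx1, was the one gene of the trafficking step with an unadjusted p under 0.05 in limma. Dtx3 was at 56.4 and 69.8 FPKM in the controls and at 93.1 and 82.5 FPKM in Brg1-deficient cells, with no overlap. Its log2 fold change was 0.48 (SE 0.167, adjusted p = 0.343), and its change of the mean was under the size that the list criteria ask for. Dtx3 lies on the reverse strand of chromosome 10 from 127190378 to 127195728. Dtx4 was at 34.4 and 30.5 FPKM in the controls and at 26.8 and 32.2 FPKM in Brg1-deficient cells, which overlapped. Itch, a ligase that targets Notch for degradation, was at 40.2 and 46.8 FPKM in the controls and at 56.0 and 52.4 FPKM in Brg1-deficient cells. Both Brg1-deficient values of Itch were higher (log2 fold change 0.31, adjusted p = 0.479).

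Mib1, a ligase that ubiquitinates Notch ligands so that they can pull on the receptor, was at 15.9 and 9.52 FPKM in the controls and at 10.4 and 12.9 FPKM in Brg1-deficient cells. Those values overlapped, as did those of Numb, an endocytic inhibitor of Notch, at 11.0 to 13.2 FPKM in the 4 libraries, and of Dtx3l, at 7.51 to 11.5 FPKM. Dtx2 was lower in both Brg1-deficient libraries, at 4.74 and 4.50 FPKM against 5.20 and 6.99 FPKM, with a log2 fold change of -0.32 (adjusted p = 0.609 in limma). Numbl stayed at or under 0.56 FPKM.

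A further 38 genes that act with Notch, such as other ligand ligases, corepressors and convertases, were looked at in the same fit. Of these 33 were tested, none at an adjusted p under 0.05, with 3 lower and 1 higher at an unadjusted p under 0.05 in limma, beside 6.47% and 6.12% of all genes. By the list criteria 3 of the 33 were lower and 1 was higher, beside 4.37% and 3.85% of all genes. Furin, the convertase that cuts newly made Notch, was at 120.0 and 154 FPKM in the controls and at 98.4 and 83.6 FPKM in Brg1-deficient cells (log2 fold change -0.58, adjusted p = 0.294). Tle3, a Groucho corepressor that works with the Hes proteins, was at 19.5 and 25.0 FPKM in the controls and at 13.9 and 15.8 FPKM in Brg1-deficient cells (log2 fold change -0.55, adjusted p = 0.339). Furin and Tle3 were lower in both Brg1-deficient libraries, without overlap. Nedd4, a ubiquitin ligase related to Itch, was at 24.1 and 36.1 FPKM in the controls and at 50.1 and 43.4 FPKM in Brg1-deficient cells (log2 fold change 0.64, adjusted p = 0.347, and 0.36 without Brg1-sufficient library 1). The median log2 fold change of the 33 genes was 0.03, the same as that of all genes.

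The sorted cells had the markers of ILC3s, whose 12 genes summed to 11084 and 13309 FPKM in the controls and to 25794 and 14640 FPKM in Brg1-deficient cells, most of it Il22. The marker sums of NKp46+ ILC3s, a subset of ILC3s, and of ILC2s, T cells and B cells were lower in both Brg1-deficient libraries than in both controls. The 7 markers of NKp46+ ILC3s summed to 103 and 110 FPKM in the controls and to 37.2 and 36.7 FPKM in Brg1-deficient cells. By the list criteria 4 of the 6 tested were lower, beside 4.37% of all genes. Klrb1c overlapped between the groups. Cxcr3 was higher without overlap, at 3.39 and 3.88 FPKM in the controls and at 6.42 and 4.39 FPKM in Brg1-deficient cells. Ncr1, which encodes NKp46, was at 31.3 and 35.5 FPKM in the controls and at 5.37 and 6.02 FPKM in Brg1-deficient cells. The 11 markers of ILC2s summed to 552 and 273 FPKM in the controls and to 111 and 143 FPKM in Brg1-deficient cells. All 10 tested genes were lower without overlap, beside 20.2% of all genes. The controls differed widely in single genes, with Il5 at 24.8 and 1.64 FPKM and Areg at 26.7 and 58.7 FPKM. Il13, not tested, was at 1.04 and 0.50 FPKM in the controls and at 0 in both Brg1-deficient libraries. The ILC2 sum was highest in Brg1-sufficient library 1, as were Notch2, Rbpj, Maml2, Hey1 and Heyl, whereas Dll1 was highest in Brg1-sufficient library 2. The 7 T cell markers summed to 135 and 59.6 FPKM in the controls and to 34.6 and 45.2 FPKM in Brg1-deficient cells. Of the 6 tested, 3 were lower by the list criteria, beside 4.37% of all genes. Trac and Cd8b1 overlapped between the groups, with Trac at 33.6 and 4.86 FPKM in the controls and at 5.08 and 12.5 FPKM in Brg1-deficient cells. The 6 B cell markers summed to at most 10.9 FPKM, most of it Cd79b in the controls. The part of these cell types in the differences of the Notch pathway genes was not tested.

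Of the remaining marker lists, the sums of all but the epithelial one overlapped between the groups, although single genes did not. The sums of 10 NK cell and ILC1 markers were 150 and 303 FPKM in the controls and 470 and 255 FPKM in Brg1-deficient cells. In that list Gzma, a granzyme, was at 50.8 and 103 FPKM in the controls and at 397 and 218 FPKM in Brg1-deficient cells. By the list criteria 3 of the 7 tested genes, Ncr1, Tbx21 and Klri2, were lower, beside 4.37% of all genes, and the median log2 fold change was -1.11. Ncr1 and Tbx21 also belong to the NKp46+ ILC3 list, so their lower values count in both lists. The sums of 10 myeloid and dendritic cell markers lay between 266 and 477 FPKM and overlapped. In this list Zbtb46, a transcription factor of dendritic cells, was at 40.4 and 31.1 FPKM in the controls and at 12.2 and 7.51 FPKM in Brg1-deficient cells. Zbtb46 and Adgre1 were lower by the list criteria. Fcgr1 was higher without overlap, at 0.60 and 0.80 FPKM in the controls and at 2.48 and 1.71 FPKM in Brg1-deficient cells. The list members Flt3 and Itgax stayed at or under 1.01 FPKM in every library. The 6 endothelial markers summed to 65.2 to 90.2 FPKM with overlap, and the 7 stromal markers to 11.1 to 13.1 FPKM. The 8 epithelial markers summed to 3.96 and 4.01 FPKM in the controls and to 4.63 and 4.76 FPKM in Brg1-deficient cells.

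**Figure D4:**
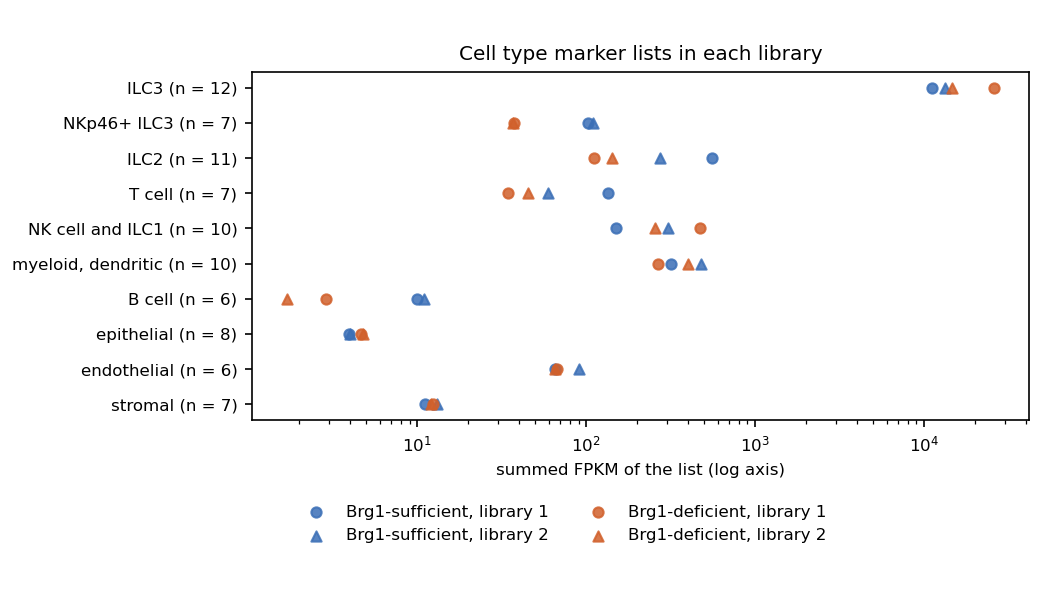
Summed FPKM of each cell type marker list in each library, on a log axis, with the number of genes per list; colours and shapes are as for the Notch pathway genes. The NKp46+ ILC3, ILC2, T cell and B cell sums of both Brg1-deficient libraries lie below both controls.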

How the data were processed

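RNA-seq libraries of sorted small intestinal ILC3s were analysed, 2 of Brg1-sufficient and 2 of Brg1-deficient donor origin. The authors mapped reads to GRCm38.p5 with STAR 2.5 and quantified genes with RSEM 1.2, per the labels, and deposited one FPKM value per gene and library. Sorted values agreed within 1% across libraries at 99.3% of 13693 ranks with a mean FPKM above 1, as after quantile normalization, a step not named in the sources used here. No counts were used, so depth and counting error are unknown, and 30046 to 36929 genes per library were above 0. Strand was not known to be used, so genes that share exons cannot be separated.

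Libraries were matched to groups by the genotype and number in their labels. The test ran in R 4.3.3 on the 14739 genes whose mean exceeded 1 FPKM in at least one group, by limma 3.58.1 (lmFit, eBayes with trend) on log2(FPKM + 1), and p-values were adjusted over these genes by the Benjamini-Hochberg method. For a single gene in groups of 2, the smallest p of an exact two-sided permutation is 0.333. The list criteria use the limits that the study set for its gene ontology lists, where they were applied to another test, and here they were applied to limma results. An adjusted p under 0.05 with a mean above 1 FPKM is the study's limit for changed genes. The Notch pathway genes, the further lists and the tests were chosen with earlier results of these data known. Genes given in every library were those with a mean above 15 FPKM, an unadjusted p under 0.05, or a mean above 5 FPKM and a fold beyond 2, and others were added for their role. In the further list, genes passing the list criteria were named, except for items that are not reported here. Alternatives were a pseudocount of 0.1, no or a stricter filter (mean above 5), no trend, quantile normalization, median centring, the replicate number as a block, and leaving out each library. Gene positions are from GENCODE M21 on GRCm38, in which all 42 identifiers were found, and upstream sequences are from RefSeq on GRCm38.p6, in which 33 of the 42 genes had an entry.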

Additional observations from a re-analysis of the deposited data

How the results depend on the processing

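The 33 tested Notch pathway genes, with Furin, Tle3 and Nedd4, were recomputed under each alternative, and the stricter filter left 30 of these 36. With a pseudocount of 0.1, all 36 kept their direction. The filters, the trend and the block cannot change a fold change in this design, only its p-value, so the directions kept there carry no information. Quantile normalization and median centring also kept them, but could change little, since the libraries already had nearly the same distribution. The median log2 fold change of the Notch pathway genes moved by less than their median standard error. Without a filter on low FPKM, where 44235 genes were adjusted together, the list criteria kept 1 gene lower and 0 higher, and in limma without a trend 1 higher. With the replicate number as a block, 1 gene passed an adjusted p of 0.05, which was Dll1 (adjusted p = 0.0141). Same-numbered libraries did not deviate together (correlation -0.00039 over 14739 genes), and no label says that the numbers pair them. Leaving out each library in turn gave 0 to 4 lower and 0 to 2 higher genes by the list criteria, 23 to 33 genes without overlap, and log2 fold changes that changed sign, of -0.0048 to 0.68 for Jag2, -0.0842 to 0.45 for Rfng, -0.15 to 0.0706 for Psen2, -0.0884 to 0.0043 for Ncstn, -0.15 to 0.0745 for Psenen, -0.33 to 0.25 for Spen, -0.42 to 0.26 for Mib1, -0.15 to 0.0911 for Numb and -0.40 to 0.15 for Dtx3l. None of these genes passed a threshold in any of the fits. The lower genes that the list criteria kept with a library left out were also kept with all libraries, but the higher genes were not. Dll1, Hes1 and Dtx1 were kept in none of those fits, so the higher genes counted there were others. Over all genes, the 45 at an adjusted p under 0.05 became 0 without the filter, 0 without the trend, 114 with the stricter filter, 398 with the block and 0 without any one library. Notch pathway genes at an unadjusted p under 0.05 numbered 9, 8 to 10 under these settings, and 3 to 9 with a library left out. The causes were not tested. With unknown depth and 2 libraries a group, values near 1 FPKM are imprecise, and a p that misses a threshold does not show equal levels.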

Other observations

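Ratios between related genes, chosen after their values were seen, are given for 5 pairs as a description. Dll1 over Jag2 was 4.70 and 3.70 in the controls and 0.905 and 0.787 in the Brg1-deficient libraries. Notch2 over Notch1 was 3.03 and 2.58 in the controls and 1.30 and 1.37 in the Brg1-deficient libraries, so Notch2 remained the more abundant receptor gene per unit of length. Hes1 over Hey1 was 3.36 and 6.61 in the controls and 30.6 and 61.5 in the Brg1-deficient libraries. Maml2 over Maml1 was 1.51 in both controls and 0.740 and 1.11 in the Brg1-deficient libraries, and Dtx3 over Dtx4 was 1.64 and 2.29 against 3.47 and 2.57. None of these ratios overlapped between the groups. They were not tested, since the pairs were picked for their values.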
